A study of Drosophila melanogaster with 28 samples.

Results

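The cytoplasmic ribosomal protein genes are described here through Rpb3 ChIP-seq of Drosophila melanogaster embryos at stage 5, when the zygotic genome is activated. Rpb3 is a subunit of RNA polymerase II (Pol II), so the number of Rpb3 reads over a gene measures how much Pol II lies on it. The members were the protein-coding genes whose symbol begins with RpS, RpL or RpLP followed by a number, with chromosome 4 left out, and they came to 91 of the 16513 genes tested. They comprised 37 genes of the small subunit and 54 of the large subunit, and RpS3A on chromosome 4 was the 1 gene set aside. By symbol, 7 of the 91 are the copy of a paralog pair known from the germline or from fewer tissues, 5 carry the ending -like, and 79 are neither. Each gene was represented by its transcript with the highest mean count. All 91 passed the filter on length and on low counts.

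The 4 libraries came from pooled embryos of 2 genotypes. Ctrl embryos (genotype t180, 2 libraries) were laid by mothers that carried the germline driver mat-alpha-Gal4 with a control RNAi line, and DomKD embryos (genotype t216, 2 libraries) by mothers in which the same driver expressed a hairpin against domino (dom). The Domino ATPase exchanges H2A for its variant H2A.Z, the product of His2Av, in promoter nucleosomes. The knockdown acts in the mother and lowers the maternal supply, the zygote still carries the dom gene, and the read-out counts polymerase on DNA and not messenger RNA. Values are scaled to each library's total, so the number of embryos pooled does not itself set them. Whether fewer nuclei at the right stage or less polymerase per nucleus lowered a value cannot be told apart in pooled embryos.

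An 80S ribosome is built from ribosomal RNA and a fixed set of proteins, each needed in about the same amount, and the genes for these proteins lie scattered over the chromosomes. In flies most of them start transcription at a pyrimidine-rich initiator called TCT in place of the usual initiator and the TATA box, and TRF2, M1BP and DREF are factors known to act at such promoters. The early embryo inherits its ribosomes from the egg, and its own ribosomal protein genes belong to the broadly used genes that are read in nearly every cell.

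The libraries held 8326382 to 12022604 counts over genes. The background density of a library was taken as the commonest read density over long genes, and it was 4.22 to 4.64 CPM per kb in Ctrl 1, Ctrl 2 and DomKD 1 and 7.02 in DomKD 2, where CPM is the count scaled to the library's total. The estimated share of reads above that background was 53.3% to 57.5% in the first 3 libraries and 29.3% in DomKD 2, which therefore stood apart. Marker genes of stage 5 were occupied in 12 of 13 cases, at a median of 23.96 times background. Markers of other tissues were occupied in 2 of 8 cases (elav and Mst84Da), at a median of 0.98 times background. The dom gene itself had 617, 664, 599.5 and 371 CPM in Ctrl 1, Ctrl 2, DomKD 1 and DomKD 2 (adjusted p = 0.27, edgeR likelihood ratio test), and since the hairpin acts on the maternal RNA, this count does not check the knockdown.

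Promoter sequence was examined first, because the TCT initiator is the element for which these genes are known in flies. The motif was searched as TCTTT or CCTTT on the coding strand, with its C within 10 nt of the annotated start of the counted transcript. It was found in 53 of the 91 ribosomal protein genes (58.2%) and in 4.20% of 16494 promoters searched in the same way. Genes with the motif below carry it in capitals, and in genes without it the capital letter is the annotated start. The windows run from 15 bases before that start to 25 bases from it, read 5′ to 3′ on the coding strand in the dm6 assembly (RefSeq sequence). Genes of different occupancy, function and response were chosen, with the broad and the restricted copy of 4 paralog pairs side by side.
RpL3 (chr3R:11221879-11221918, plus strand): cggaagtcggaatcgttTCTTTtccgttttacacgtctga
RpL13A (chr3R:5624459-5624498, plus strand): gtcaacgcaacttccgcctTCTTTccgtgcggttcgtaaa
RpL32 (chr3R:30046137-30046176, minus strand): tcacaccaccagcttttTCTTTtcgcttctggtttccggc
RpLP1 (chr2L:419937-419976, plus strand): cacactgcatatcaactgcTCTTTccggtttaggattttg
RpS3 (chr3R:23358797-23358836, plus strand): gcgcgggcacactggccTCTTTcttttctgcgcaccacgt
RpS27A (chr2L:10408337-10408376, plus strand): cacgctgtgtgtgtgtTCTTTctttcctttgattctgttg
RpS19a (chrX:16637879-16637918, plus strand): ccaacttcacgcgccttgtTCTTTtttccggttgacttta
RpS19b (chr3R:23933506-23933545, minus strand): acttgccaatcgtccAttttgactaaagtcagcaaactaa
RpS28b (chrX:9554608-9554647, plus strand): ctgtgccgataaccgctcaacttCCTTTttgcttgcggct
RpS28a (chr3R:30022624-30022663, minus strand): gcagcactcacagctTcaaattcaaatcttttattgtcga
RpS10b (chrX:19598025-19598064, plus strand): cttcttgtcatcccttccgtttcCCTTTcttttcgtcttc
RpS10a (chr3R:27652745-27652784, plus strand): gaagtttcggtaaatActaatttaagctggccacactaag
RpL10Ab (chr3L:11822836-11822875, plus strand): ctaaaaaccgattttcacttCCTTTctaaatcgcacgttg
RpL10Aa (chr3R:15037351-15037390, plus strand): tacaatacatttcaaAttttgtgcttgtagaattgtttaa
RpS2 (chr2L:9897528-9897567, minus strand): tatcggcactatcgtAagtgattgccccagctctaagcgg

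In these windows the capitals sit in a run of pyrimidines in RpL3, RpL32, RpS3 and RpS19a, and no such run surrounds the starts of RpS10a and RpL10Aa. The C of the initiator did not lie on the annotated start itself. It lay 3 to 10 bases into the transcript in 50 of the 53 genes, counted from 1 at the annotated first base, and in 2 it was the base next to that first base. Position 5 was the most frequent, with 11 genes. Widening the window to 25 nt brought the count to 60 of 91, beside 10.7% of all promoters. When every annotated start of a gene was allowed, 74 of 91 members (81.3%) had the motif, beside 5.77% of all genes. RpLP0, RpL5, RpL7, RpL27A and RpS23 were among those gained, so the absence of the motif at a counted start says nothing about the gene's other starts. The plot of initiator positions shows the same concentration downstream of the start.

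**Figure D1:**
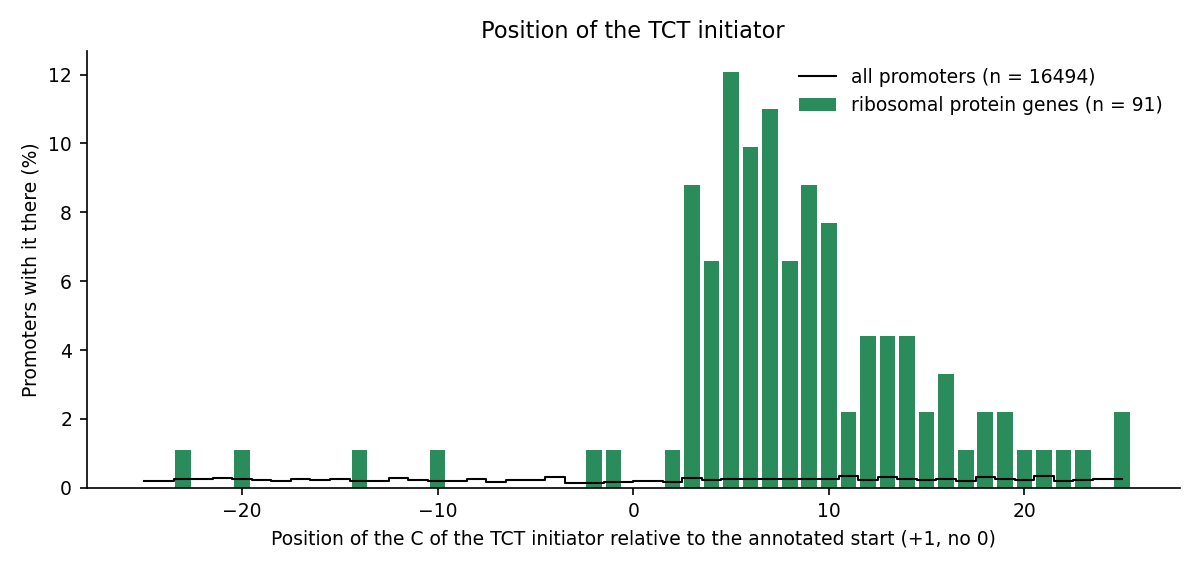
Share of promoters with the C of a TCT initiator at each position from 25 nt before to 25 nt after the annotated start, for the 91 ribosomal protein genes (bars) and for all 16494 promoters (line). The members' bars stand above the line from position 3 to position 23 and reach 12.1% at position 5, while the line stays between 0.133% and 0.352%.

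The motif followed the classes of genes. It was present in 50 of the 79 members that are neither restricted copies nor -like genes, in 2 of the 7 restricted copies (RpL37-2 among them) and in 1 of the 5 -like genes (RpL7-like). By subunit it was found in 19 of 37 small and 34 of 54 large subunit genes. Genes with it had a median Rpb3 density of 6.42 times background and genes without it 5.67 times. All 53 genes with it, and 34 of the 38 without it, had at least 2 times background. The medians were not compared within 1 class of genes.

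Other promoter motifs were searched from 250 bases before the start to 50 bases after it. The DRE, bound by DREF (TATCGATA, which reads the same on both strands), occurred in 28 members (30.8%), in 8.02% of all promoters and in 14.1% of those of occupied genes. The Ohler 1 core, bound by M1BP (GGTCACACT, either strand), occurred in 9 members (9.89%) and in 5.20% of all promoters, and in 9.99% of the promoters of occupied genes. The E-box bound by Myc (CACGTG, the same on both strands) occurred in 9 members, all of the large subunit, beside 4.13% of all promoters and 5.09% of those of occupied genes. RpL24-like, RpLP0-like and RpL7-like were 3 of those 9. A TATA box (TATAAA on the coding strand, 40 to 20 bases before the start) occurred in 1 member, RpL39, beside 6.69% of all promoters. No searched motif contains another. A match is a run of letters and was not tested for binding.

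The longer windows of RpL27 and RpL24 show how these elements are laid out. RpL27 is the member with a DRE, an Ohler 1 core and the TCT initiator together, and RpL24 pairs an E-box with the initiator. Both windows run from 250 bases before the annotated start to 25 bases from it, with each motif in capitals.
RpL27 (chr3R:25685027-25685301, minus strand): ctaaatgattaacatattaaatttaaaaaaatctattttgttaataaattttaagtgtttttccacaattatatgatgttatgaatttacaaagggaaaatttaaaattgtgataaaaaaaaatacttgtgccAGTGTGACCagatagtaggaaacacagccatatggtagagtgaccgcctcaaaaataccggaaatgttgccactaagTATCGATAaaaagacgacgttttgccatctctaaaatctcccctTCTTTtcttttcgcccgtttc
RpL24 (chr2L:13395068-13395342, minus strand): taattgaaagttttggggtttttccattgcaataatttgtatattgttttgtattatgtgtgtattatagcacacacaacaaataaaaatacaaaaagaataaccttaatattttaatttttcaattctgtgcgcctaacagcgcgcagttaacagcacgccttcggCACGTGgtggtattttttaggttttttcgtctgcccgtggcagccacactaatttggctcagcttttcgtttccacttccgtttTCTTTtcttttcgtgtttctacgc

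In RpL27 the Ohler 1 core, present as its reverse complement, begins 117 bases before the start and the DRE 40 bases before it, and the initiator C is base 6 of the transcript. In RpL24 the E-box begins 83 bases before the start, and the initiator C is base 3.

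Pol II was found on nearly all ribosomal protein genes. Of the 91 genes, 87 had a mean density of at least 2 times background, beside 36.2% of all genes tested, and 28 reached 8 times background, beside 4.96%. The median member stood at 7.56 and 8.73 times background in Ctrl 1 and Ctrl 2, at 6.47 times in DomKD 1 and at 3.29 times in DomKD 2. The median over the 4 libraries was 5.88 times for the members and 3.61 times for all 5975 occupied genes. Their spans had a median of 1305 nt and ran from 304 nt (RpS28a) to 4677 nt.

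**Figure D2:**
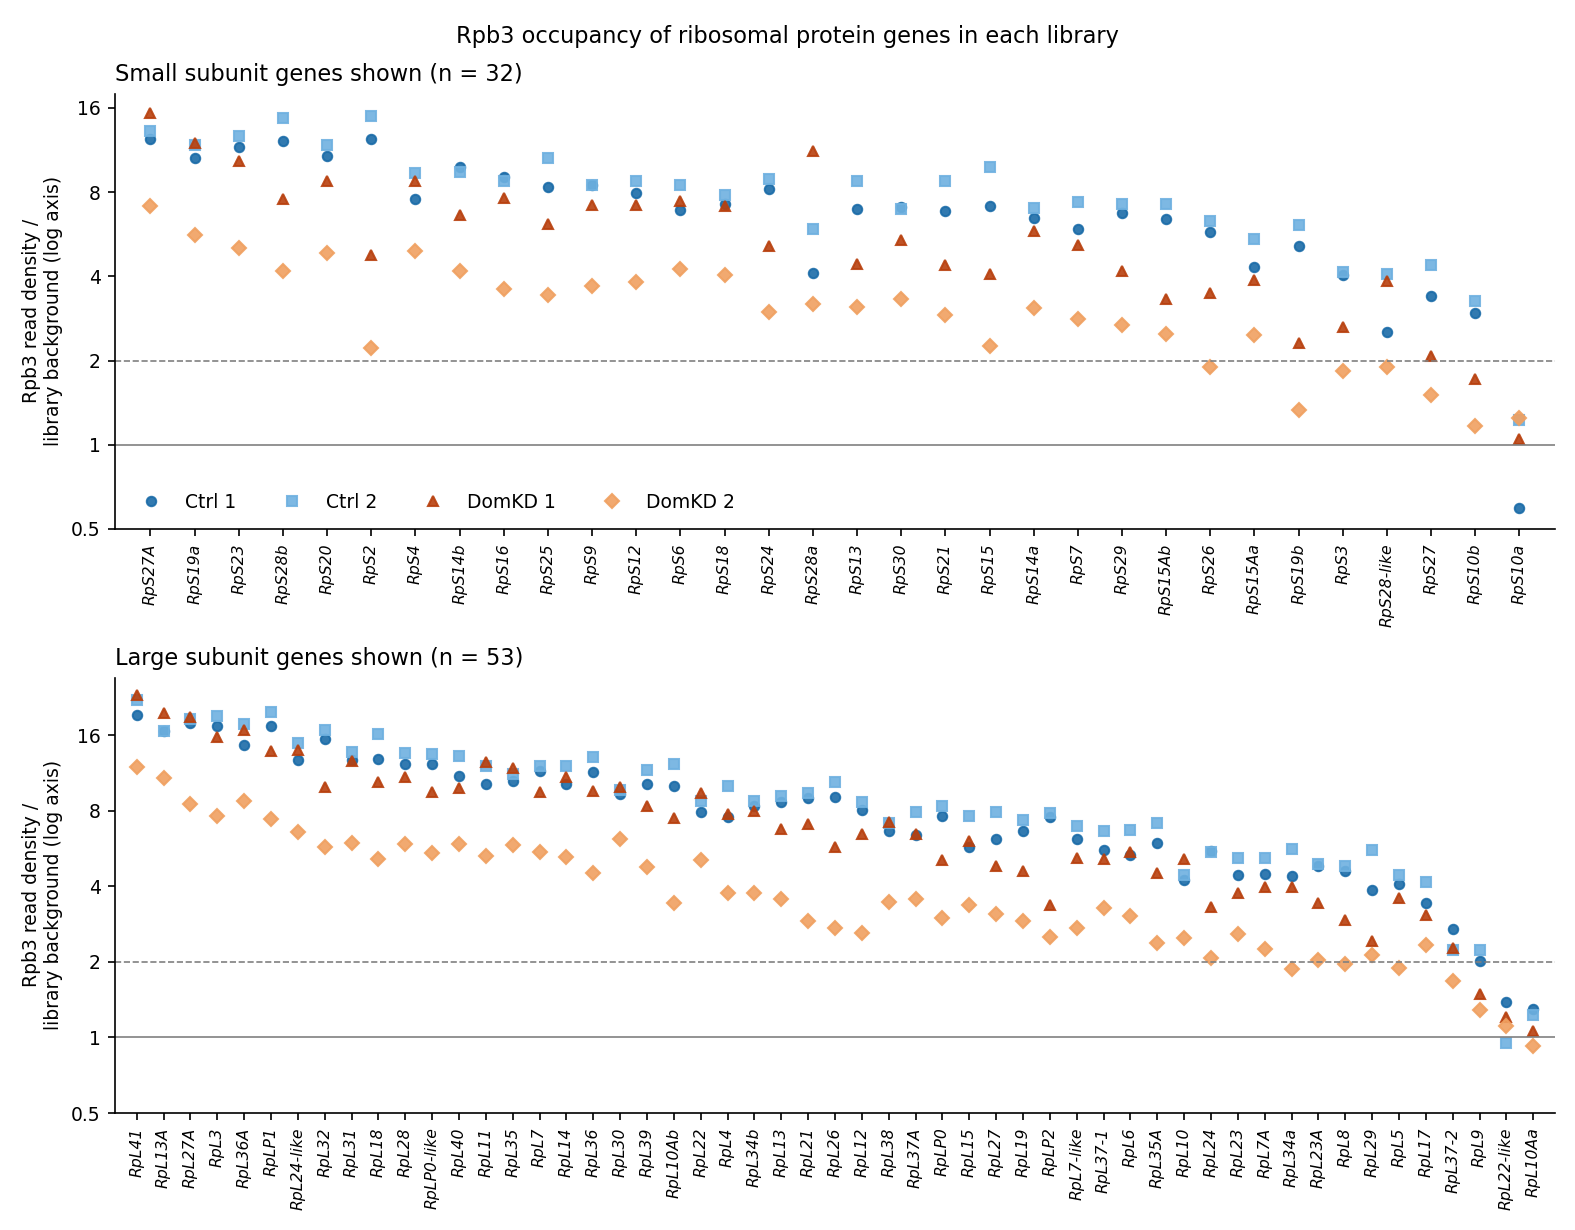
Rpb3 read density divided by the background density of the same library (log axis) for the small and large subunit genes shown, ordered by the mean over libraries. Symbols are the 4 libraries, the solid line is background and the dashed line 2 times background. DomKD 2 lies lowest for most genes, and RpS10a, RpL10Aa, RpL22-like and RpL9 lie at the right end of each panel under a mean of 2.

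Among the densest large subunit genes were RpL41, RpL13A and RpL27A. RpL41, which encodes the smallest ribosomal protein, stood at 19.2 and 22.1 times background in Ctrl and at 23.1 and 12.0 times in DomKD. Its span overlaps the gene NaCP60E. RpL13A stood at 16.7 times in both Ctrl libraries and at 19.7 and 10.9 times in DomKD, so both of these genes lay highest in DomKD 1. RpL27A had 17.8, 18.6, 19.0 and 8.55 times background in the same order of libraries. RpL3, whose protein reaches to the centre where peptide bonds form, followed with 17.4, 19.1, 15.8 and 7.64 times.

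Among the densest small subunit genes were RpS27A and RpS19a. RpS27A, whose protein is made as a fusion with ubiquitin, stood at 12.4 and 13.2 times background in Ctrl and at 15.3 and 7.16 times in DomKD, and its span overlaps Ip259. RpL40, the other ubiquitin fusion, stood at 11.0, 13.3, 9.83 and 5.89 times. RpS19a stood at 10.6 and 11.8 times in Ctrl and at 12.0 and 5.64 times in DomKD, so its groups overlapped.

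The least occupied members were RpS10a, RpL10Aa, RpL22-like and RpL9. RpS10a had 0.593, 1.22, 1.05 and 1.25 times background, RpL10Aa 1.30, 1.23, 1.06 and 0.924 times, and RpL22-like 1.38, 0.953, 1.21 and 1.12 times. These 3 genes lay at the level of background in every library, and each is known mainly from the germline. RpL9, the exception among the broadly used genes, had 2.02 and 2.23 times background in Ctrl and 1.49 and 1.29 times in DomKD. Just above the limit of 2 stood RpS10b at 2.13 and RpL37-2 at 2.16 times background.

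The large subunit genes had a median density of 6.51 times background and the small subunit genes 5.44 times. The log2 difference of the medians, small minus large, was -0.18 and -0.05 in the Ctrl libraries and -0.35 and -0.16 in the DomKD libraries. A two-sided exact permutation test over libraries gave p = 0.67 for DomKD against Ctrl, and 2 libraries against 2 cannot give a p below 0.33. Among the 58 members that overlap no other gene the differences were -0.10, 0.15, 0.02 and 0.03.

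In DomKD embryos, 25 of the 91 ribosomal protein genes had fewer Rpb3 reads and none had more at an adjusted p under 0.05 (edgeR likelihood ratio test with Benjamini-Hochberg adjustment over all genes). Across all genes tested, 12.7% were called lower and 2.46% higher. Among occupied genes, which the members nearly all are, 30.6% were called lower and 0.937% higher. The members' share of 27.5% called lower was thus close to that of occupied genes in general. Without adjustment, 39 members had p under 0.05, beside 5122 of all 16513 genes and 2939 of the 5975 occupied genes. The fold change lay below 0 in 76 members, beside 45.3% of all genes and 78.4% of occupied genes. Both DomKD libraries lay below both Ctrl libraries in 58 members, beside 31.8% of all genes and 62.1% of occupied genes. They lay above both in 1 member (RpS10a), beside 30.8% of all genes and 7.65% of occupied genes. The median log2 fold change of the members was -0.35, of occupied genes -0.40 and of all genes 0.07.

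The size of the change depended on the DomKD library. Set against the Ctrl mean, the median member changed by -0.14 on the log2 scale in DomKD 1 and by -0.61 in DomKD 2, and occupied genes by -0.21 and -0.59. In DomKD 1, 30 members lay above the Ctrl mean, beside 8487 of all 16513 genes and 1958 of the 5975 occupied genes. In DomKD 2 only RpS10a, RpL22-like, RpL10Aa and RpL37-2 did, which are 4 of the 6 least occupied members. Of all genes 8719 and of occupied genes 628 lay above the Ctrl mean in DomKD 2. DomKD 2 is the library with the higher background and the lower share of reads above it. When each library's background was taken off, the medians were -0.40 and -0.80 for the 88 members above background in every library and -0.53 and -1.13 for occupied genes. These densities carry no TMM factors, so they are not on the scale of the -0.14 and -0.61 above and cannot be set directly against them.

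The number of calls changed with the scaling and with the libraries. With scaling and test restricted to occupied genes, the median member changed by -0.020, the median of all those genes by -0.04, and 17 of the 87 occupied members were called lower and 11 higher, beside 20.0% and 21.6% of those genes. The share of members called lower was thus close to that of occupied genes in general. Among the 11 were RpS28a, RpL13A, RpL22, RpL10, RpS27A, RpL30, RpL41, RpS4, RpL35 and RpL36A, and the 11 had log2 fold changes of 0.33 to 1.12 on that scale. All 11 had more scaled reads than the Ctrl mean in DomKD 1 and fewer in DomKD 2 in the fit over all genes, where none was called. Scaled to early zygotic genes, 42 members were called lower, beside 17.4% of all genes. Without Ctrl 1, 4 members were called, RpS2, RpS19b and RpS15 among them, and without Ctrl 2 only RpS2 and RpS19b were, beside 1.56% and 0.811% of all genes called lower. Without DomKD 1, 75 members were called lower and 1 higher, beside 31.5% and 21.9% of all genes. Without DomKD 2, 29 were called lower and 11 higher, beside 18.5% and 11.3% of all genes.

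**Figure D3:**
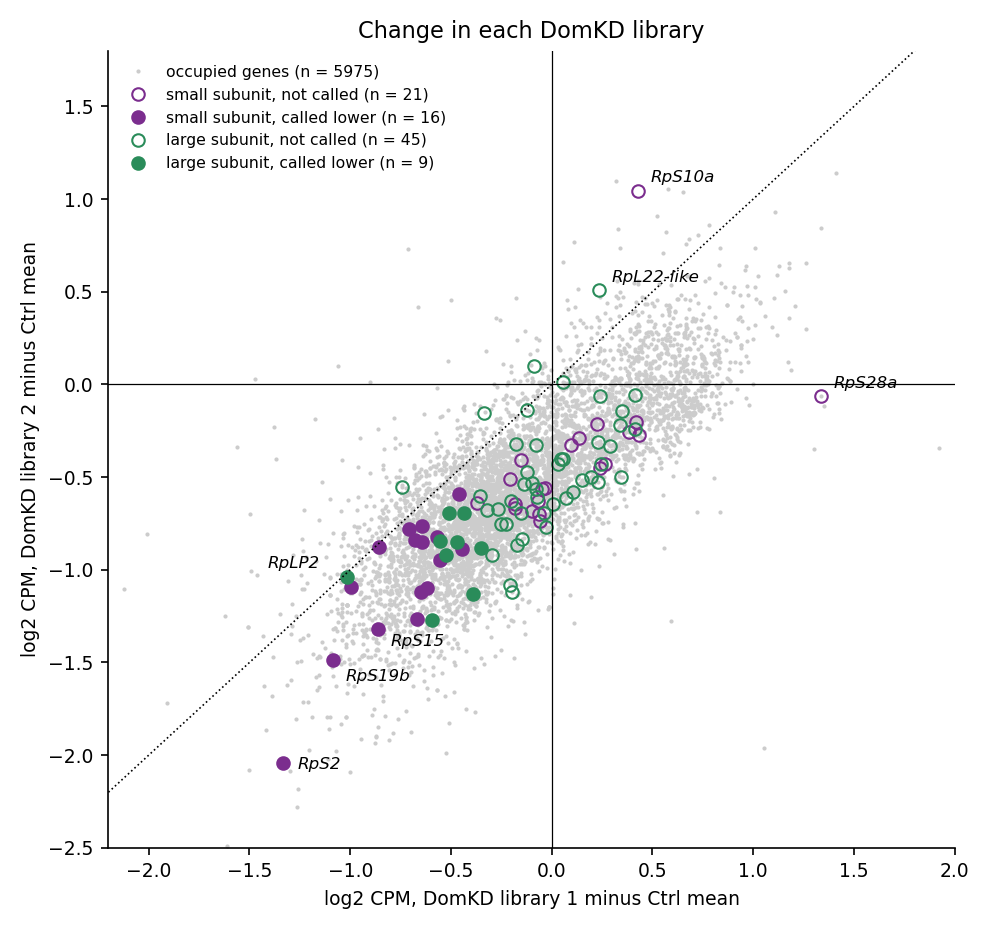
Change of log2 CPM relative to the Ctrl mean in DomKD library 1 (horizontal) and DomKD library 2 (vertical) for small subunit genes, large subunit genes and all 5975 occupied genes (grey). Filled circles are the 25 members called lower, all of which lie below 0 in both libraries, and most circles lie under the dotted line of equal change. The members lie within the cloud of occupied genes, with RpS2 at its lower left edge and RpS28a far to the right.

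RpS2 showed the largest fall of any member. It encodes a protein at the entry of the messenger RNA channel and lies on 2L (chr2L:9896265-9897552, minus strand). It had 72.3 and 80.7 CPM in Ctrl and 30.2 and 18.4 CPM in DomKD, and its log2 fold change was -1.66 ± 0.23 (SE, adjusted p = 3.5e-09, edgeR likelihood ratio test). The gene in the opposite direction, Bka, starts 161 nt from the start of RpS2 and changed by -1.66 (adjusted p = 4.8e-09). The snoRNA host Uhg2 lies 1262 nt away and changed by -1.04, whereas Muc30E, 268 nt away and below background density, changed by 0.11 (adjusted p = 0.78). These neighbours were chosen by distance after the fold changes of the members were known.

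RpS19b, the restricted copy of RpS19, fell next. It had 18.7 and 20.5 CPM in Ctrl and 9.12 and 6.86 CPM in DomKD (-1.29 ± 0.23, adjusted p = 3.4e-06, edgeR likelihood ratio test). The 3 nearest genes, CG13599, CG5854 and Rpt2, changed by -0.83, -0.74 and -0.93, each with a call. They lie 1, 382 and 1171 nt away, CG13599 on the opposite strand. A read that touched both RpS19b and CG13599 was counted for both genes, and that share was not tested. RpS15, on 2R, had 36.4 and 46.1 CPM in Ctrl and 22.4 and 16.3 CPM in DomKD (-1.09 ± 0.22, adjusted p = 4.6e-05, edgeR). Its span overlaps CG4945, which changed by -1.32, and reads in the shared bases were counted for both genes. The other two nearest genes, CG4927 and Lst, lay near background and changed by 0.45 and 0.29 without a call.

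RpLP2 was also among the 5 largest falls. It had 20.9 and 19.9 CPM in Ctrl and 9.98 and 9.84 CPM in DomKD (-1.04 ± 0.21, adjusted p = 7.6e-05, edgeR). Its nearest neighbours Dolk and Cdk4 changed by -0.22 and -0.16 without a call, but they stood at 1.72 and 1.51 times background and were not occupied. In RpS2, RpS19b, RpS15 and RpLP2 the groups did not overlap, and each kept its call under all 10 alternatives that use the 4 libraries and all genes.

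The proteins of the stalk, to which the elongation factors bind, differed in their calls. RpLP2 fell as given above. RpLP0, the base of the stalk, had 56.1 and 56.9 CPM in Ctrl and 40.7 and 31.3 CPM in DomKD (-0.65 ± 0.21, adjusted p = 0.020, edgeR). RpLP1, with 72.1, 75.7, 62.0 and 43.8 CPM, did not pass the test (-0.48 ± 0.22, adjusted p = 0.12, edgeR), although its groups did not overlap. Whether the 3 genes differ from each other in response was not tested.

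RpS3, at the messenger RNA entry, passed the test narrowly. It had 25.7 and 24.3 CPM in Ctrl and 18.1 and 16.5 CPM in DomKD (-0.53 ± 0.20, adjusted p = 0.049, edgeR), and it kept the call under 2 of the 10 alternatives. RpS6, the substrate of the S6 kinase, had 53.5 and 60.7 CPM in Ctrl and 62.6 and 46.7 CPM in DomKD, so its groups overlapped (-0.06 ± 0.22, adjusted p = 0.85, edgeR). RpL5 and RpL11, which join the 5S ribosomal RNA, had log2 fold changes of -0.32 ± 0.22 and -0.02 ± 0.24 and no call. RpL3 had 260 and 263 CPM in Ctrl and 255 and 162 CPM in DomKD, so that DomKD 2 carried most of its difference (-0.33 ± 0.24, adjusted p = 0.34, edgeR).

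Of the other called members, the 17 named next fell by 0.56 to 0.90 on the log2 scale. They were RpS15Ab, RpS28b, RpS26, RpS10b, RpS27, RpS21, RpS24, RpS13, RpS29 and RpS25 of the small subunit and RpL26, RpL10Ab, RpL32, RpL24, RpL8, RpL35A and RpL19 of the large subunit. RpL32, often used as a reference gene in fly expression work, had 65.8 and 66.0 CPM in Ctrl and 45.7 and 34.7 CPM in DomKD (-0.71 ± 0.21, adjusted p = 0.011, edgeR). RpL26 had 54.0, 57.3, 36.8 and 23.0 CPM, with DomKD 2 the lowest library.

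**Figure D4:**
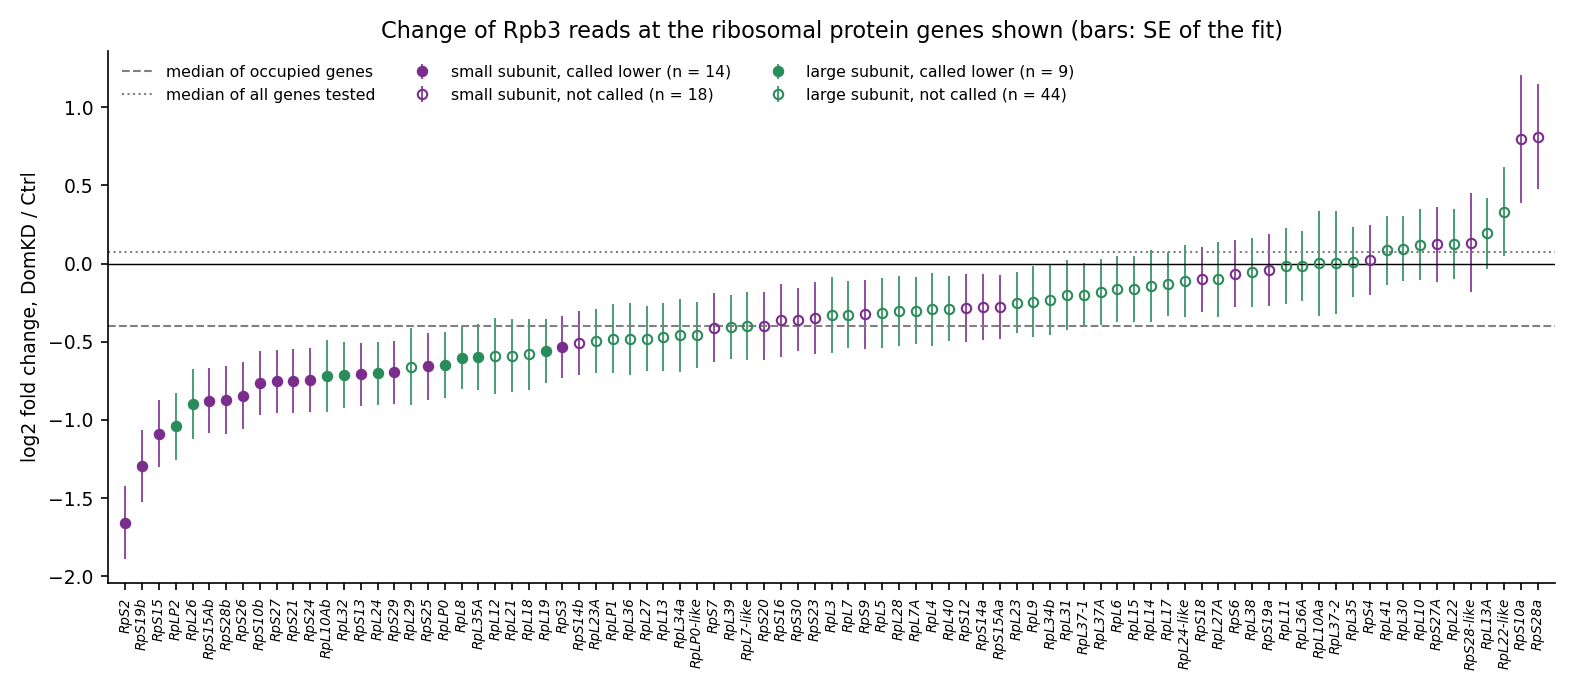
Log2 fold change of Rpb3 reads, DomKD over Ctrl, for the genes shown, in order of size, with bars of 1 SE of the edgeR fit and filled circles for those called lower. The dashed line is the median of occupied genes (-0.40) and the dotted line that of all genes (0.07). RpS2, RpS19b and RpS15 stand at the left end, and RpS10a and RpS28a at the right end.

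Of the small subunit genes 16 of 37 were called lower, and of the large subunit genes 9 of 54, with median log2 fold changes of -0.40 and -0.30. These are 43.2% and 16.7%, beside 12.7% of all genes and 30.6% of occupied genes. Density moved with this split, but the density classes rest on the mean over all 4 libraries, DomKD included. A fall in DomKD thus itself lowers the class of a gene. Members under 4 times background were called in 7 of 22 cases, those between 4 and 8 times in 16 of 41, and those at 8 times or more in 2 of 28 (RpL32 and RpS28b), and the large subunit supplied 21 of those 28. Of all genes in the same density classes 10.3%, 33.5% and 10.1% were called lower. The members' shares of 39.0% between 4 and 8 times and 7.14% at 8 times or more thus lay near those of all genes there, while their 31.8% under 4 times stood beside a class made up mostly of unoccupied genes. Under 4 times background, 5 of 8 small and 2 of 14 large subunit genes were called, with medians of -0.64 and -0.28. Between 4 and 8 times background, 10 of 22 small and 6 of 19 large subunit genes were called, with medians of -0.46 and -0.47. At 8 times background or more, the members had a median log2 fold change of -0.30, and all 819 genes of that density 0.03. In DomKD 1 that median was -0.03 for the members and 0.31 for all such genes. The counts of calls by subunit also moved with the setting. Library size alone called 16 small and 18 large subunit genes lower, TMM factors on early zygotic genes 21 and 21, and DESeq2 14 and 3. The same fits called 15.0%, 17.4% and 6.70% of all genes lower. The difference between the subunits in their counts of calls was not tested.

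The paralog pairs allowed a comparison of copies whose proteins are near alike. For 7 pairs the copy used broadly was set against the copy known from the germline or few tissues, as the log2 ratio of densities in each library. The annotation names RpL37a and RpL37b as RpL37-1 and RpL37-2. Near-identical copies can share reads in the authors' mapping, so these values carry that uncertainty. The broad copy was denser in every library in 4 of the 7 pairs (RpS19, RpL10A and RpL37 among them). The median log2 ratio over the libraries was 1.09, which is the value of the RpS10 pair. The ratios of that pair were 2.31 and 1.42 in Ctrl and 0.71 and -0.10 in DomKD, with RpS10a at background, so the median is limited by that gene's low counts.

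RpL10A showed the widest gap. RpL10Ab, which encodes the protein of the L1 stalk, stood at 10.0 and 12.3 times background in Ctrl against 1.30 and 1.23 times for RpL10Aa, a log2 ratio of 3.13 ± 0.27 (SD, n = 2 libraries). In DomKD the ratio was 2.36 ± 0.66, with RpL10Aa at background and RpL10Ab called lower (-0.72 ± 0.23, adjusted p = 0.021, edgeR). RpL37-1 against RpL37-2 had log2 ratios of 1.04 and 1.58 in Ctrl and 1.18 and 0.97 in DomKD, which overlap.

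In the RpS19 pair the restricted copy was occupied in Ctrl and fell in DomKD. RpS19a, with 65.6 and 67.3 CPM in Ctrl and 79.9 and 49.3 CPM in DomKD, had no call (-0.04 ± 0.23, adjusted p = 0.91, edgeR), while RpS19b fell as given above. Their log2 ratio was 1.06 and 0.96 in Ctrl and 2.37 and 2.09 in DomKD. The ratios of the groups did not overlap, and 2 libraries against 2 allow no p below 0.33. Reads shared with CG13599, next to RpS19b, may enter these ratios, which was not tested.

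RpS15Ab was the restricted copy with a higher read density per kb than its broad partner in Ctrl, although it had fewer reads. The log2 ratio of RpS15Aa to RpS15Ab was -0.56 and -0.42 in Ctrl and 0.22 and -0.01 in DomKD. RpS15Ab had 21.0 and 22.1 CPM in Ctrl and 11.8 and 11.6 CPM in DomKD (-0.88 ± 0.21, adjusted p = 7.9e-04, edgeR), and RpS15Aa had 38.1, 44.0, 36.8 and 30.8 CPM with no call (-0.28 ± 0.20, adjusted p = 0.33, edgeR). RpS15Ab carries a DRE and no TCT initiator at its counted start.

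The RpS10 and RpS28 pairs ran the other way, with a called fall of the broad copy. RpS10b had 23.7 and 24.2 CPM in Ctrl and 14.9 and 13.3 CPM in DomKD (-0.76 ± 0.20, adjusted p = 0.0035, edgeR), while RpS10a stayed at background. RpS28b had 57.8 and 64.3 CPM in Ctrl and 38.7 and 27.9 CPM in DomKD (-0.87 ± 0.22, adjusted p = 0.0016, edgeR). RpS28a, a gene of 304 nt, had 5.70 and 7.52 CPM in Ctrl, 16.9 CPM in DomKD 1 and 6.26 CPM in DomKD 2. Its log2 fold change of 0.81 ± 0.34 was the highest of all members and had no call (adjusted p = 0.082, edgeR), since it rests on DomKD 1, and in DomKD 2 the value lay between the Ctrl libraries.

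**Figure D5:**
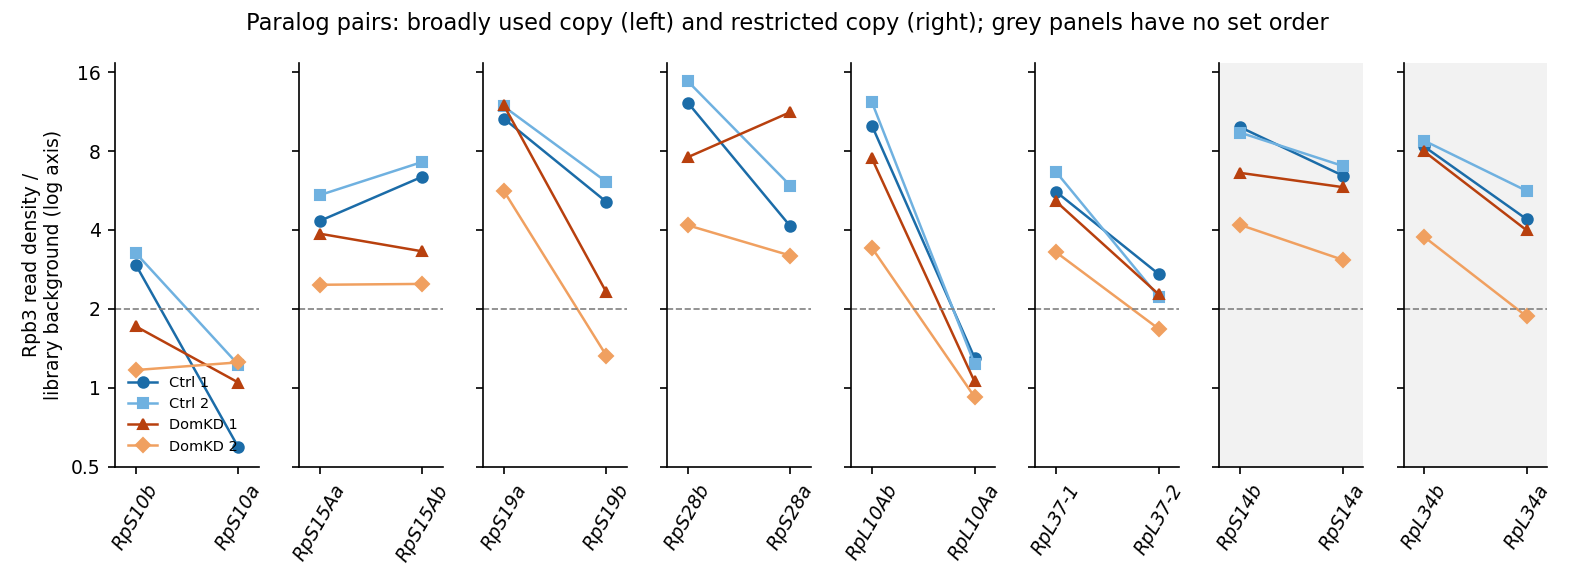
Rpb3 read density over library background (log axis) of both copies of 8 paralog pairs, with a line for each library. In the white panels the broadly used copy is on the left, and the grey panels (RpS14, RpL34) have no such order. Lines slope down in every library for RpS19, RpL10A and RpL37, and DomKD 1 slopes up for RpS28.

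For RpS14 and RpL34 neither copy is taken as the restricted one. RpS14a and RpS14b are tandem copies on X, and RpS14b was the denser copy in every library, with log2 ratios of 0.61 and 0.42 in Ctrl and 0.18 and 0.44 in DomKD. Neither was called (RpS14a -0.28 ± 0.21, RpS14b -0.51 ± 0.20). RpL34b exceeded RpL34a by 0.92 and 0.64 on the log2 scale in Ctrl and by 1.00 and 1.01 in DomKD, and neither was called.

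The 5 -like genes had no call in either direction. RpL24-like and RpLP0-like, whose yeast relatives act in the assembly of the large subunit, were among the denser members, at 12.7, 14.9, 14.0 and 6.58 times and at 12.3, 13.5, 9.49 and 5.46 times background. RpL24-like overlaps Dtd and RpLP0-like overlaps Jra, so part of their reads may belong to those genes, and that share was not tested. RpL7-like stood at 6.16, 6.93, 5.21 and 2.73 times and RpS28-like at 2.54, 4.09, 3.86 and 1.89 times.

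Counting ignored strand and added a read to every transcript it touched, so neighbours bear on these values. Of the members 33 overlap another gene, in 24 cases a protein-coding one, and 8 of the 33 were called lower, against 17 of the 58 that overlap none, which are 24.2% and 29.3%. Of all 8771 genes that overlap no other gene 9.83% were called lower, but only 2599 of those were occupied, while 55 of the 58 members were. These shares are therefore not of like genes, and among all occupied genes 30.6% were called lower. Many fly ribosomal protein genes host small nucleolar RNAs, which guide the modification of ribosomal RNA, in their introns. Small RNA genes lay inside 27 members, of which 3 (11.1%) were called lower with a median log2 fold change of -0.28. Of all 394 genes with a small RNA gene inside 12.7% were called lower, but only 182 of those were occupied, while all 27 members were. Their median span was 7501 nt and that of the 27 members 1708 nt, so the shares are not of like genes. Of the 64 members without a small RNA gene inside 22 (34.4%) were called lower, with a median of -0.47, beside 30.6% of occupied genes. The host genes were also denser, at a median of 7.29 against 5.42 times background, and the difference in calls was not tested.

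The response was also read by promoter motif. Members with the TCT initiator had a median log2 fold change of -0.37 with 16 of 53 called lower, and members without it -0.32 with 9 of 38. Members with a DRE had -0.40 with 9 of 28, and members without it -0.32 with 16 of 63. Among all occupied genes, those with the TCT initiator had a median of -0.38 with 26.9% called lower, beside 30.2% of the members with it. Occupied genes with a DRE had a median of -0.46 with 35.7% called lower, beside 32.1% of the members with it. These values are descriptions and carry no test.

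The other genes of translation were read from lists by the same test. Of 73 mitochondrial ribosomal protein genes 37 were called lower, with a median log2 fold change of -0.63. Of 23 genes of ribosome biogenesis 9 were called lower, with a median of -0.53. Of 7 elongation factor genes 2 were called lower, eEF1alpha1 and eEF2, with a median of -0.36 that lay close to that of the cytoplasmic ribosomal proteins. The shares called lower were 50.7%, 39.1% and 28.6%, beside 12.7% of all genes and 30.6% of occupied genes. None of these genes was called higher. Of the factors known at ribosomal protein promoters, M1BP, Dref, Trf2 and Myc had log2 fold changes of -0.26, -0.50, -0.15 and 0.25 and no call. The mitochondrial set had a median density of 4.00 times background and the cytoplasmic set 5.88 times, and the difference between the sets was not tested.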

How the data were processed

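Rpb3 ChIP-seq counts of 4 stage 5 libraries (Ctrl and DomKD, 2 each) were analysed. The deposited table holds raw counts that the authors made with featureCounts on dm6, over whole transcript spans, without regard to strand and with a read counted for every transcript it overlaps. The study's methods call the replicates biological. Inputs and other ChIP targets were not analysed here, so no input was taken off. The BDGP6 annotation supplied symbols for 34516 of the 34793 transcript identifiers, and 277 had none. Members and gene lists were chosen with earlier results of these data known.

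Genes were tested through their transcript with the highest mean count, at least 125 nt long and with more than 10 reads in sum, with edgeR 4.0.16 under R 4.3.3 (likelihood ratio test) and TMM factors (1.02, 1.01, 0.895 and 1.09), Benjamini-Hochberg adjusted over 16513 genes at 0.05. The test was checked on simulated counts. The study's methods computed the Pol II scaling factors on its Zelda zygotic targets, so the TMM factors over all genes used here differ from the study's scaling. CPM are TMM-scaled, and density is CPM per kb of span without TMM factors. Background was the mode of log2 density over genes spanning more than 2000 nt, and occupied genes had a mean density of at least 2 times the mean background (5.07 CPM per kb). Promoter sequence came from the RefSeq dm6 genome. Library size alone, quasi-likelihood, DESeq2 1.42.0, other filters, other transcripts, a replicate block and leaving out libraries or genes were the alternatives. Named genes were, apart from some members whose values are not reported here, the densest and least dense of each subunit, the 5 largest calls each way (none was higher), the paralogs and -like genes, and members of known role. Intervals and calls cover the spread between 2 libraries a group. All 91 members enter the counts and medians.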

Additional observations from a re-analysis of the deposited data

How the results depend on the processing

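The count of 25 ribosomal protein genes called lower (12.7% of all genes) was 34 with library size alone (15.0%), 42 with TMM factors on early zygotic genes (which moved the median of all genes by -0.28 on the log2 scale and their calls from 2092 lower and 406 higher to 2872 and 6), 22 with the quasi-likelihood test (10.4%), 17 with DESeq2 (6.70%), 24 to 30 with other filters and transcripts (12.2% to 12.8%), and 19 of 58 among genes overlapping no other gene (12.4%), where each percentage is the share of all genes that the same fit called lower. Tested among occupied genes alone, 17 were called lower and 11 higher, beside 1195 and 1288 of those genes. The median log2 fold change of -0.35 became -0.67 with the early zygotic factors and -0.020 among occupied genes alone. Leaving out 1 library gave 2 to 76 called members, the fewest without Ctrl 2 (0.811% of all genes were called lower) and the most without DomKD 1 (31.5% lower and 21.9% higher), a median from -0.62 to -0.15 and a small minus large difference from -0.15 to -0.07. The counts gave no sign that the replicate numbers pair the libraries, which does not show that they were unpaired. The correlation of the replicate differences between the groups was -0.14 over all genes and -0.05 over occupied genes. With a replicate block, which called 9.95% of all genes lower, 22 members were called, 21 of them among the 25. A crossed replicate block, added after seeing the data, called 32 lower (16.2% of all genes) and 1 higher. Of the 25 called members, 16 kept the call under all 10 alternatives with all libraries and all genes, RpS3 under 2, and none reversed. With background taken off and no TMM factors, the median was -0.57, beside -0.40 with library size alone. The 87 occupied members, the median paralog ratio and the 53 initiators moved by less than 1.5 times or 1 SD under their alternatives. With 2 libraries a group, and 1 left when a library is taken out, the spread is borrowed from the other group. Values of genes near background, such as RpS10a, are limited by depth.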
